A study of Homo sapiens with 8 samples.

Results

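The genes described here encode the translation initiation and elongation factors of human cells. They were taken as every protein-coding gene of GENCODE release 44 whose symbol starts with EIF1, EIF2, EIF3, EIF4, EIF5, EIF6, EEF1 or EEF2 and holds no hyphen, with no measured value used. There were 69 such genes, 68 of them among the 63568 genes of the count table, and EEF1AKMT4 had no row there. By family, 15 belonged to eIF2, 14 to eIF3, 16 to eIF4, 13 to elongation and 11 to eIF1, eIF5 and eIF6. The last group holds EIF1AY, which lies on the Y chromosome and is counted without its values.

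RNA came from MIAPaCa-2, an established pancreatic carcinoma line labelled as epithelial. The control cells carried a control short hairpin RNA (shRNA-Control) and the METTL3-KD cells a short hairpin RNA against METTL3 (shRNA-METTL3), the enzyme that writes most N6-methyladenosine (m6A) in mRNA. The METTL3-KD cells were a line received as a gift, with no second hairpin, clone or rescue among the samples. In methylated RNA immunoprecipitation sequencing (MeRIP-seq), fragmented RNA is sequenced as input and after precipitation with an antibody against m6A, and each condition had 1 library of each kind, read on 2 lanes.

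Translation begins when eIF2 brings the initiator tRNA to the small ribosomal subunit, eIF3 holds that subunit ready, and eIF4 factors bind the mRNA cap, unwind the leader and bring its ends together. eIF1 and eIF1A select the start codon, eIF5 and eIF5B complete subunit joining, and eEF1 and eEF2 then carry each round of elongation. Signalling acts on these steps mainly through kinases that phosphorylate eIF2 and through proteins that sequester eIF4E, and eIF3 has been described as a partner of METTL3 at messages under translation.

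Lanes held 906240 to 1628753 counted reads. The input counts summed to 3237968 reads in the control and 1833005 in METTL3-KD cells, but the reads stood for few distinct fragments. The peak caller recorded 9291 distinct positions in the control input and 52141 in the METTL3-KD input. The most frequent low count per gene was 510 reads in the control and 19.6 in METTL3-KD cells. Counts divided by these values are called fragment equivalents here, 6350 in the control and 93684 in METTL3-KD cells. Intervals are 95% exact intervals on fragment equivalents rounded to whole numbers and cover counting error only. With 1 library per condition no difference between conditions has a replicate check, no test was run and no p is given. METTL3 had 0 reads in all 4 lanes, so its level gives no check of the labels. Of the epithelial keratins KRT8 had 10850 and 1167 reads and KRT18 had 3535 and 1212 in control and METTL3-KD inputs. KRT19 ran the other way with 1 and 201 reads, KRT7 had 1 and 0, and EPCAM and CDH1 had 0 in both. The mesenchymal gene VIM had 8978 and 5649 reads, the fibroblast gene COL1A2 had 1804 and 353, and COL1A1, the leukocyte gene PTPRC and the acinar genes PRSS1 and CPA1 were at 0.

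Translation factor mRNA took similar shares of both inputs, and most of it came from elongation factors. All 68 genes together made up 1.61% of control reads (95% exact Poisson interval 1.31% to 1.95%) and 1.68% of METTL3-KD reads (1.60% to 1.77%). The log2 ratio of METTL3-KD over control was 0.07 (-0.22 to 0.37) after scaling to total counts and 1.49 (1.2 to 1.80) after TMM scaling (trimmed mean of M values), which assumes that most measured genes do not change. The choice moved all genes, since the median log2 ratio of the 1871 genes with at least 10 reads in each input was -1.97 by total counts and -0.56 by TMM. Ratios below are therefore given under both scalings. They are shares of bulk RNA, in which fewer cells of a type and less RNA per cell cannot be told apart.

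**Figure D1:**
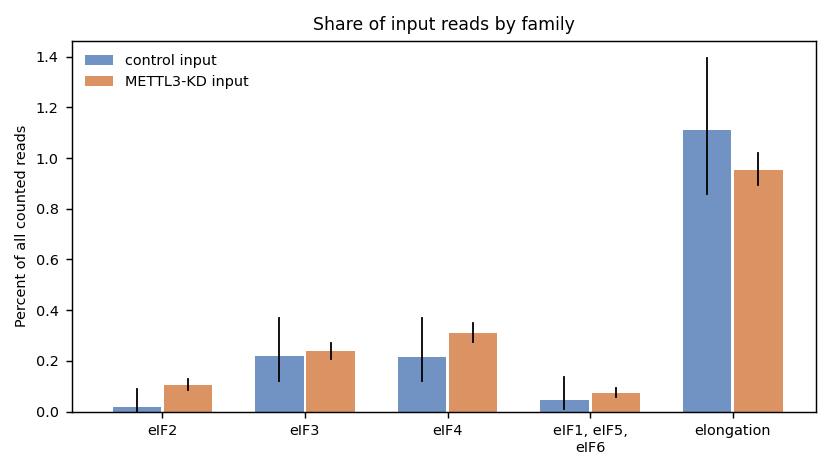
Percent of all counted input reads (vertical axis) taken by each translation factor family in control and METTL3-KD cells, as bars from 0 with lines for 95% exact Poisson intervals on fragment equivalents. Elongation genes took 1.11% and 0.954%, and the intervals of the inputs overlap in each family, for eIF2 only at their edges.

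Far more of these genes were seen in METTL3-KD cells, as were far more genes in general. At least 1 read was counted for 25 of the 68 genes in the control input and for 56 in the METTL3-KD input. Over all 19488 protein-coding genes these counts were 2002 and 7722. Of the 68 genes, 11 had no read in either input. Of the 56 genes with at least 10 reads over both inputs, 22 had at least 10 in each (background 18.8%) and 32 had reads in METTL3-KD cells alone. The 32 make up 57.1% of the 56, against a background of 74.3% of the 9931 genes that passed the same minimum. Within a class of METTL3-KD reads the translation factors were found in the control about as often as other genes. At least 10 control reads were present for 2 of 21 (9.52%) with 20 to 99 METTL3-KD reads, against 12.7% of all genes in that class. The shares were 3 of 12 (25.0%) against 29.0% at 100 to 299 reads, and 13 of 18 (72.2%) against 63.5% at 300 to 865 reads. At 866 reads or more the 4 factors EEF1A1, EEF2, EEF1G and EIF4A2 were all present, against 96.1% of all genes.

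**Figure D2:**
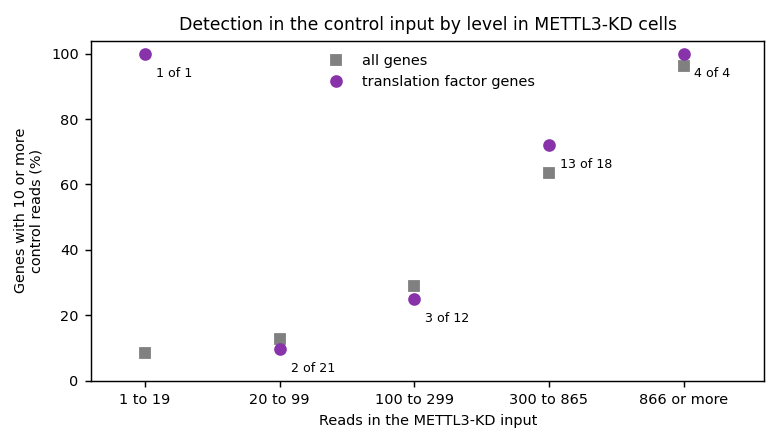
Percent of genes with at least 10 control reads (vertical axis) by class of reads in the METTL3-KD input (horizontal axis), for translation factor genes (circles, with counts) and all genes (squares). Both climb together from about 10% at 20 to 99 reads to nearly all genes at 866 or more, and the lone factor in the lowest class is EIF5AL1.

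The limit of 866 reads was chosen because a METTL3-KD count of that size, at an equal share of the library, corresponds to 3 fragment equivalents in the control. That is 0.0472% of control reads, the floor used here for a count of 0, and the exact 95% Poisson upper limit for 0 is 0.0581%. Each of the 32 genes with 0 control reads had fewer METTL3-KD reads than this, the most being 671 for EIF3M. A difference between conditions was thus not detectable at this depth for any of them under total count scaling, and no fold is given. Counted by the size of the fitted ratio under TMM scaling, 37 genes were above a log2 of 2 (background 79.2%) and 2 below -2 (background 7.2%). By total counts the numbers were 37 (background 78.3%) and 5 (background 12.7%). Of the 37, 32 are the genes at 0 in the control, whose ratios depend on the prior count, and as shares of the 56 genes all 4 counts lie below the background. The fitted median log2 ratio was 6.19, against 5.64 over all genes tested, and with genes at 0 placed at the floor it became -0.65 by TMM and -2.06 by total counts, against -2.45 and -3.87 over all genes. By family the fitted TMM medians were 7.06 for eIF2, 6.22 for eIF3, 4.09 for eIF4, 5.97 for eIF1, eIF5 and eIF6, and 1.35 for elongation. This order follows the share of each family at 0 in the control, 92.3%, 57.1%, 33.3%, 55.6% and 37.5% of the genes tested, apart from eIF4 and elongation.

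**Figure D3:**
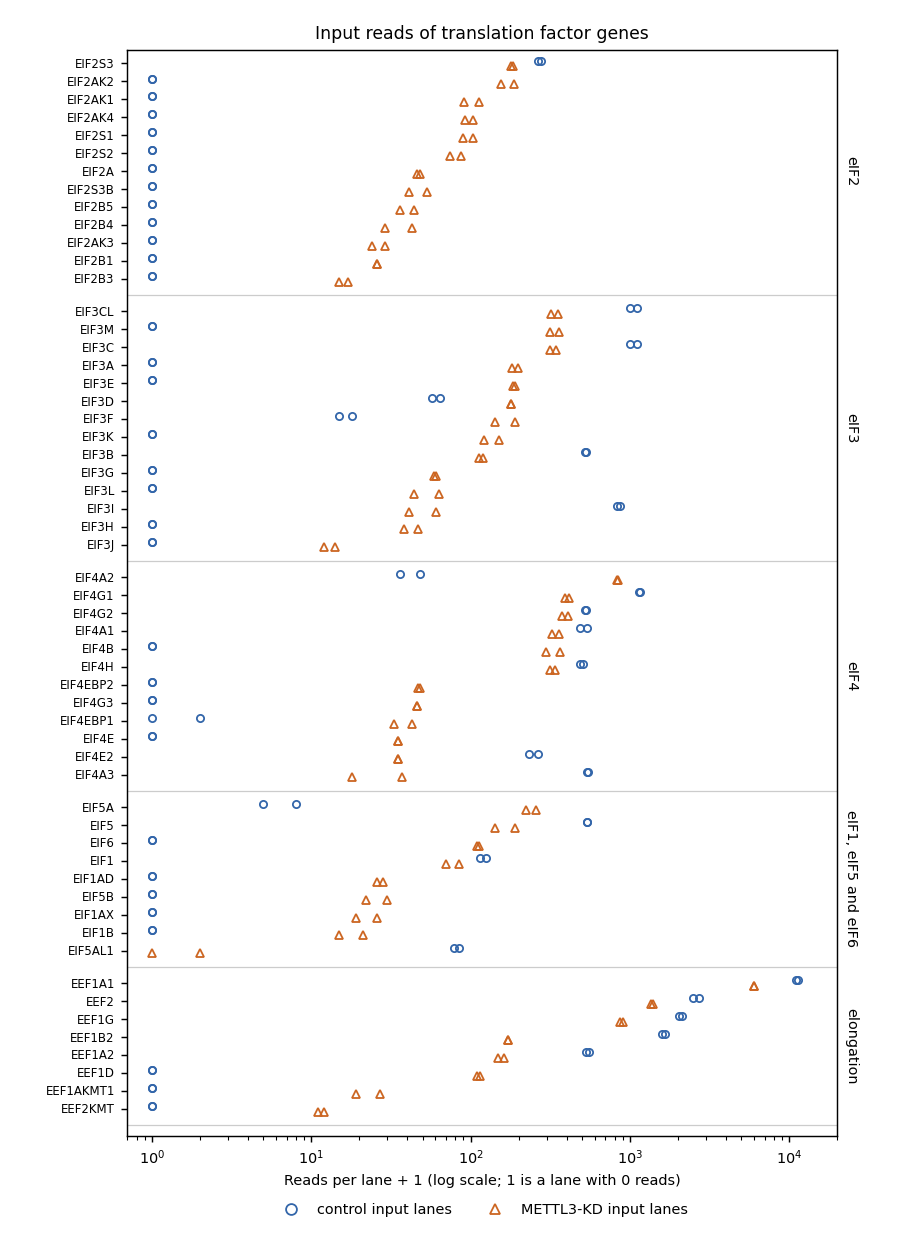
Reads in each sequencing lane plus 1 (horizontal axis, log scale) for the 56 translation factor genes with at least 10 reads over both inputs, control lanes as circles and METTL3-KD lanes as triangles, grouped by family. Control lanes lie either at 0 reads or mostly well above it, whereas METTL3-KD lanes fill the range from about 10 reads upward, apart from EIF5AL1 with 1 and 0.

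Among the 22 genes with at least 10 reads in each input, the median log2 ratio was -0.25 by total counts (background -1.97 over the 1871 such genes) and 1.17 by TMM (background -0.56). Ratios lay above 0 for 9 of the 22 by total counts (background 13.7% of the 1871) and for 18 by TMM (background 37.5%). Below a log2 of -2 there were 4 of 22 by total counts, against 49.3% of the 1871 genes, and 1 by TMM, against 20.4%. Above 2 there were 4 under either scaling, against 3.37% by total counts and 8.02% by TMM. These were EIF3D, EIF4A2, EIF3F and EIF5A, whose control reads are 0.233, 0.161, 0.0608 and 0.0216 fragment equivalents. The control count of each is under 1 fragment equivalent and was rounded to 0 for its interval, although each gene passed the minimum of 10 reads. Reads counted in both control lanes need at least 1 fragment, so the unit does not hold for these genes. Intervals with 1 control fragment were not computed. The counting intervals, taken over all 56 genes with at least 10 reads over both inputs, were wide. By total counts the interval lay above 0 for EIF4A2 only (background 0.242% of the 9931 genes) and below 0 for EIF3I and EEF1B2 (background 6.29%). By TMM it lay above 0 for 6 genes, EEF1A1, EEF2, EIF4A2, EIF4B, EIF3M and EIF5A (background 1.81%), and below 0 for none (background 2.62%). Of these, EIF4B and EIF3M had 0 control reads, lie outside the 22 and passed the minimum through METTL3-KD reads alone. These counts depend on what a fragment is taken to be. With the second, upper mode of reads per gene as the unit, a choice made after seeing the data, no interval lay above 0 (background 0.151%) or below it (background 0.856%) by total counts, and 3 lay above (background 0.675%) and 0 below (background 0.171%) by TMM. With reads per distinct position as the unit, also chosen then, 1 lay above (background 0.534%) and 3 below (background 8.74%) by total counts, and 14 above (background 3.66%) and 0 below (background 3.39%) by TMM.

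**Figure D4:**
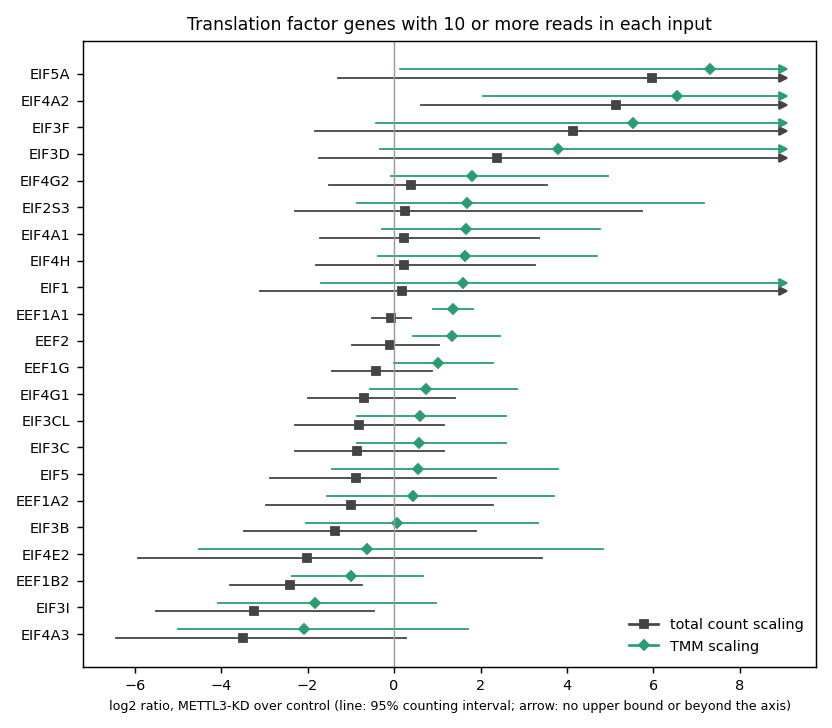
Log2 ratio of METTL3-KD over control reads (horizontal axis) for the 22 translation factor genes with at least 10 reads in each input, by total count scaling (squares) and TMM scaling (diamonds), with lines for 95% counting intervals on fragment equivalents. EEF1A1 has the narrowest interval, and the intervals of most genes reach across 0 under both scalings.

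Elongation factors were the most abundant members and the best measured. Their 12 genes in the count table held 35930 control reads and 17495 METTL3-KD reads, 1.11% and 0.954% of the inputs, with a summed log2 ratio of -0.21 (-0.56 to 0.17) by total counts and 1.21 (0.87 to 1.59) by TMM. EEF1A1, which delivers aminoacyl-tRNA to the ribosome, had control lanes of 11009 and 11266 reads and METTL3-KD lanes of 5991 and 6049. This placed it at rank 9 of all genes in the control and rank 19 in METTL3-KD cells, with 0.688% and 0.657% of reads. Its log2 ratio was -0.06 (-0.52 to 0.40) by total counts and 1.36 (0.91 to 1.83) by TMM, so its direction depends on the scaling. EEF1A1 (chromosome 6, 74199031 to 74235310, minus strand, GRCh37) shares sequence with many processed copies, of which 17 held 32926 control reads and 16338 METTL3-KD reads in all. The copy EEF1A1P5, 99.7% identical over the aligned bases, alone had 12460 and 6406 reads. How reads with several alignments were counted is not given in the sources used here, so the split between the gene and its copies is uncertain. Without EEF1A1 the elongation genes took 0.422% of control reads and 0.298% of METTL3-KD reads, a log2 ratio of -0.50 (-1.08 to 0.12) by total counts and 0.92 (0.34 to 1.54) by TMM.

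EEF2, the translocase that moves the ribosome along by a codon, had control lanes of 2497 and 2695 reads and METTL3-KD lanes of 1359 and 1400. The log2 ratio of EEF2 was -0.09 (-0.98 to 1.03) by total counts and 1.34 (0.44 to 2.45) by TMM, much like EEF1A1. EEF1G, the scaffold of the eEF1 exchange complex, had 2112 and 2032 control reads and 897 and 864 METTL3-KD reads, a log2 ratio of -0.41 (-1.43 to 0.87) by total counts and 1.01 by TMM. An overlapping readthrough gene on the same strand carried exactly the same counts, so the reads cannot be divided between them.

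EEF1B2, the subunit that reloads eEF1A with GTP, had the lowest fitted ratio of the elongation factors. It had 1649 and 1586 control reads and 170 and 171 METTL3-KD reads, and lanes of the same library give no check of this difference. The log2 ratio was -2.42 (-3.79 to -0.75) by total counts and -1.0 (-2.36 to 0.68) by TMM, and the interval by total counts was 1 of the 2 below 0 among all these genes. The control reads amount to a few fragment equivalents. With the upper modes as the unit the interval by total counts was -4.24 to 0.21 and included 0. Its processed copies, 3 with reads, held 981 control reads and 53 METTL3-KD reads, so its own count is uncertain. EEF1A2, the form used mainly in muscle and neurons and 78.6% identical to EEF1A1 over the aligned bases, had 551 and 531 control reads and 147 and 160 METTL3-KD reads. That gave a log2 ratio of -0.99 (-2.97 to 2.28) by total counts and 0.43 by TMM. EEF1D, the other exchange subunit, had 0 reads in both control lanes and 109 and 113 in METTL3-KD cells, and 1 control peak in an exon of a non-coding isoform. The enzymes that modify elongation factors were scarce. EEF1AKMT1, a lysine methyltransferase of eEF1A, had 44 METTL3-KD reads, EEF2KMT, which methylates eEF2, had 21, and both were at 0 in the control. EEF2K, the kinase that inhibits eEF2, had 2 control reads and none in METTL3-KD cells. The enzymes EEF1AKMT2 and EEF1AKMT3 had no read in any lane, and neither had the gene EEF1E1, which is not counted among these enzymes.

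All 14 eIF3 subunit genes were read in METTL3-KD cells and 6 of them in the control. Together they held 7107 control reads and 4370 METTL3-KD reads, 0.219% (0.121% to 0.370%) and 0.238% (0.208% to 0.271%) of the inputs, a log2 ratio of 0.12 (-0.66 to 1.01) by total counts and 1.55 by TMM. EIF3C and EIF3CL are copies on chromosome 16, identical over all 2910 aligned bases of their transcripts, and their reads cannot be told apart. EIF3C, a core subunit, had 1000 and 1106 control reads and 315 and 342 METTL3-KD reads. EIF3CL had 1002 and 1104, then 320 and 353. The log2 ratio of EIF3C was -0.86 (-2.28 to 1.16) by total counts and 0.57 by TMM. Counting the pair once, without EIF3CL, raised the log2 ratio of the family by total counts to 0.39 (-0.55 to 1.44).

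The other core subunits were read unevenly. EIF3A, the largest subunit, was at 0 in the control and had 180 and 198 METTL3-KD reads. EIF3B, its scaffold partner, had 530 and 520 control reads and 118 and 112 METTL3-KD reads, a log2 ratio of -1.36 (-3.46 to 1.91) by total counts and 0.06 by TMM. SNX8, which overlaps EIF3B on the opposite strand, had 1068 and 14 reads, and whether counting used strand is not given in the sources used here. EIF3I, a propeller-shaped subunit that binds EIF3B, had the lowest ratio of the family, with 833 and 862 control reads and 40 and 60 METTL3-KD reads. Its log2 ratio was -3.24 (-5.51 to -0.46) by total counts and -1.83 (-4.08 to 0.97) by TMM. EIF3G, which completes this module, was at 0 in the control and had 60 and 58 METTL3-KD reads.

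EIF3D, the subunit able to bind the cap of certain messages, ran the other way, with 63 and 56 control reads and 179 and 178 METTL3-KD reads. The EIF3D log2 ratio was 2.38 by total counts and 3.80 by TMM, with lower bounds of -1.74 and -0.32. EIF3F, a subunit with an MPN domain, had 17 and 14 control reads and 142 and 190 METTL3-KD reads, with lower bounds of -1.84 and -0.41, so both intervals included 0. With reads per distinct position as the unit the lower bounds by TMM were 0.38 and 0.26, above 0. The control counts of both are under 1 fragment equivalent and were rounded to 0 for these bounds. EIF3M, a subunit of the outer PCI and MPN ring, was at 0 in the control and had 313 and 358 METTL3-KD reads, and its lower bound was 0.67 by TMM and -0.76 by total counts. Of the other ring subunits, EIF3E had 372 METTL3-KD reads, EIF3K 270, EIF3L 105 and EIF3H 83, and the loosely bound EIF3J had 24, all with 0 control reads.

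Subunits of a stable complex need not have equal mRNA, and per length the METTL3-KD input spread them widely. Reads per kilobase of the canonical transcript were 350 for EIF3K, 226 for EIF3C, 190 for EIF3D, 184 for EIF3E and 133 for EIF3M. They were 107 for EIF3G, 74.3 for EIF3B, 70.4 for EIF3I, 56.8 for EIF3A, 48.0 for EIF3F, 39.3 for EIF3L, 21.0 for EIF3H and 9.68 for EIF3J. Some of these rest on few fragments, with 1.23 fragment equivalents for EIF3J, 4.24 for EIF3H, 5.11 for EIF3I and 5.37 for EIF3L. The canonical length used as divisor ran from 772 bases for EIF3K to 6920 for EIF3F, and which transcripts were read was not examined. In the control the order was different, with EIF3I first at 1193 reads per kilobase, EIF3C at 724 and EIF3B at 339. These control levels rest on so few fragments that neighbours in that order cannot be told apart.

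The control m6A list held exon peaks for 5 eIF3 genes. A peak here is a stretch where the m6A library exceeded its input with a q value under 0.01, its pileup is the number of distinct fragments at the summit, and it was given to a gene when the summit lay in an exon. EIF3B had a peak of pileup 3 in its 3'UTR (exon 19 of 19), and EIF3M had 4 peaks, 2 of pileup 2 in coding exons 9 and 10, 1 of pileup 1 in coding exon 4 and 1 of pileup 1 in an exon of a non-coding isoform. EIF3A had a peak of pileup 2 in coding exon 19, EIF3J had 1 of pileup 1 in coding exon 6, and EIF3G had 1 of pileup 1 in its 3'UTR. The sequence context matters because METTL3 methylates the A before C in the pentamer DRACH, in which the first letter is A, G or T, the second is A or G, the pair that follows is A and C, and the last is A, C or T. The windows below are centred on the DRACH match nearest to the summit, on the gene strand and from GRCh37, with the match in capitals, and were chosen from the eIF3 peaks of pileup 2 or more that lie closest to a match.
EIF3B 3'UTR, plus strand, chr7:2419952-2419976: ggaagccgcgTGACTcccgcctcct
EIF3M exon 10, plus strand, chr11:32623304-32623328: tcagccgtaaGAACTaaaatggtct
EIF3M exon 9, plus strand, chr11:32622323-32622347: aatgcagcaaGAACTtcagattgga
The A of the match lay 4 bases downstream of the summit in EIF3B, and in EIF3M it lay 2 bases upstream in exon 10 and 6 downstream in exon 9. Whether matches lie this close to a summit more often than by chance was not tested. None of these 3 peaks had a METTL3-KD peak over it, and how often this held over all control peaks was not counted. EIF3M was at 0 in the control input, so its peaks were called without a counted input read in the gene.

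The METTL3-KD list held 1 exon peak in an eIF3 gene. It lay in coding exon 4 of 15 of EIF3D, with a pileup of 7 and a fold of 7.36 over background, the highest of all peaks in translation factor genes in either list. No DRACH match was present near its summit. Matches were searched in a fixed stretch around each summit, which left the far end of this peak out. EIF3CL had a further METTL3-KD peak of pileup 5, with its summit in an intron and a part of it over an exon. The transcripts of EIF3C and EIF3CL are identical over the aligned bases and their introns were not compared. This peak thus cannot be assigned to EIF3CL alone.

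The eIF4 genes held 7021 control reads and 5700 METTL3-KD reads, 0.217% (0.121% to 0.370%) and 0.311% (0.276% to 0.348%), a log2 ratio of 0.52 (-0.27 to 1.39) by total counts and 1.95 by TMM. EIF4G1, the scaffold of the cap complex, had 1158 and 1135 control reads and 392 and 414 METTL3-KD reads, a log2 ratio of -0.68 (-1.99 to 1.42) by total counts and 0.74 by TMM. EIF4E, which binds the cap itself, had 0 control reads and 34 in each METTL3-KD lane. EIF4E2, its low-affinity relative, had 233 and 264 control reads and 34 in each METTL3-KD lane, a log2 ratio of -2.02 (-5.93 to 3.42) by total counts and -0.62 by TMM. EIF4E1B and EIF4E3 had no read.

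EIF4G2, which lacks the eIF4E site and serves other modes of initiation, had 524 and 528 control reads and 407 and 372 METTL3-KD reads. This is a log2 ratio of 0.39 (-1.51 to 3.54) by total counts and 1.81 by TMM. EIF4G3 had 90 METTL3-KD reads and EIF4B, the helicase cofactor, had 365 and 296, both with 0 in the control. EIF4B had a lower bound of 0.67 by TMM and -0.76 by total counts. Its processed copies, 4 with reads, held 390 METTL3-KD reads against 661 for the gene, so its own count is uncertain. EIF4H, a related cofactor, had 485 and 506 control reads and 314 and 339 METTL3-KD reads, a log2 ratio of 0.22 (-1.80 to 3.27) by total counts and 1.64 by TMM.

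The eIF4A helicases showed how far an overlapping gene can set a count. EIF4A1 had 484 and 535 control reads, and SNORD10, a small nucleolar RNA inside the gene, had exactly 484 and 535 as well. None of the control reads of EIF4A1 was thus left once snoRNA reads were taken off, against 654 of 680 in METTL3-KD cells. Of those 680 reads, 677 (99.6%) were also counted for an overlapping long non-coding RNA gene on the same strand, which had 0 in the control, so they cannot be assigned to the EIF4A1 mRNA alone. EIF4A2 had 35 and 47 control reads and 829 and 846 METTL3-KD reads, a log2 ratio of 5.13 (lower bound 0.63) by total counts and 6.54 (lower bound 2.06) by TMM. These bounds take the control reads of EIF4A2 as 0 fragment equivalents. In METTL3-KD cells 1092 of its 1675 reads (65.2%) were also counted for snoRNA genes inside it, 825 of them for SNORA81, and in the control none were. Without snoRNA reads EIF4A2 had 583 METTL3-KD reads and its lower bound was -0.95 by total counts and 0.48 by TMM, so the interval by total counts then included 0. EIF4A3, the helicase of the exon junction complex, had 548 and 538 control reads and 36 and 17 METTL3-KD reads. Its log2 ratio was -3.50 (-6.42 to 0.29) by total counts and -2.09 (-5.0 to 1.71) by TMM. The family sum without snoRNA reads had a log2 ratio of 0.42 (-0.43 to 1.37) by total counts.

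The genes for proteins that bind eIF4E had few reads, all under the detection limit of the control input. EIF4EBP1, the classical target of mTOR, had 1 control read and 32 and 42 METTL3-KD reads. EIF4EBP2 was at 0 in the control and had 47 and 46 METTL3-KD reads. EIF4EBP3 and EIF4ENIF1, the nuclear transporter of eIF4E, had no read in either input, although EIF4EBP2 and EIF4ENIF1 had control m6A peaks.

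Control exon peaks were found in 6 eIF4 genes. EIF4G1 had 1 of pileup 2 in its 3'UTR (exon 33 of 33) and 1 of pileup 1 in its 5'UTR, EIF4G3 and EIF4ENIF1 had 1 each of pileup 2 in coding sequence, and EIF4EBP2 had 1 of pileup 2 in its 3'UTR. The peaks of EIF4A1 and EIF4A2 had a pileup of 3 and lay over SNORA48 and SNORA63, in exons annotated only to non-coding isoforms, and cannot be assigned to the mRNA. EIF4EBP2 was the only gene with an exon peak in each list. Its METTL3-KD peak, of pileup 3, lay in the same 3'UTR with its summit 1978 bases from that of the control, and the peaks did not overlap. The windows show the GGACT match of EIF4G1, the most favoured form of the motif, and both EIF4EBP2 peaks for comparison, with the match nearest to the summit in capitals.
EIF4G1 3'UTR, plus strand, chr3:184052748-184052772: ctagccgcctGGACTgcaggggggc
EIF4EBP2 3'UTR, control list, plus strand, chr10:72187063-72187087: tacagttcttTAACTctcagctttt
EIF4EBP2 3'UTR, METTL3-KD list, plus strand, chr10:72185154-72185178: aagaatttatGGACAtatcttaaaa
The match of EIF4G1 lay 14 bases downstream of the summit. Those of EIF4EBP2 lay 35 bases upstream in the control peak and 34 downstream in the METTL3-KD peak.

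eIF2 genes were the least read in the control. EIF2S3, the gamma subunit that holds the initiator tRNA, was the only one of 15 with control reads, 274 and 262, and it had 184 and 179 METTL3-KD reads. Its log2 ratio was 0.26 (-2.29 to 5.74) by total counts and 1.68 (-0.86 to 7.17) by TMM. EIF2S1, the subunit that stress kinases phosphorylate, had 89 and 103 METTL3-KD reads, EIF2S2 had 86 and 73, and the retrogene EIF2S3B had 52 and 40. The kinases were all read in METTL3-KD cells alone. EIF2AK2, the double-stranded RNA sensor PKR, had 186 and 153 reads, EIF2AK1, the haem-regulated kinase, 111 and 90, EIF2AK4, the amino acid sensor GCN2, 103 and 91, and EIF2AK3, the endoplasmic reticulum sensor PERK, 28 and 23. Of the exchange factor eIF2B, EIF2B5, its catalytic subunit, had 78 reads, EIF2B4 70, EIF2B1 50 and EIF2B3 30, and EIF2B2 had none. EIF2A, which can deliver tRNA without GTP, had 92 reads and EIF2D had none.

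Summed over the family, eIF2 genes took 0.0166% (0.000399% to 0.0877%) of control reads and 0.104% (0.0849% to 0.127%) of METTL3-KD reads. The log2 ratio was 2.66 (0.22 to 8.05) by total counts and 4.08 (1.65 to 9.48) by TMM, and eIF2 was the only family whose interval by total counts did not include 0. By TMM the interval of every family lay above 0, including eIF3 (0.76 to 2.43) and eIF4 (1.15 to 2.81). The control side rests on about 1 fragment equivalent, all of it EIF2S3. With the upper modes as the unit the interval by total counts was -0.84 to 7.03 and included 0. No test of eIF2 against the other families was made.

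Control exon peaks lay in 4 eIF2 genes. They were a peak of pileup 3 in the coding sequence of EIF2S3B, of pileup 2 in coding exon 13 of 17 of EIF2AK3 and in the 3'UTR of EIF2AK1, and of pileup 1 in the 3'UTR of EIF2S3. The retrogene EIF2S3B had 0 control input reads, and its sequence was not compared with that of EIF2S3. Whether the fragments of its peak came from EIF2S3 was not tested. In METTL3-KD cells EIF2AK2 had a peak of pileup 1 in coding exon 13 of 17. The EIF2AK3 peak is shown because 4 DRACH matches lay under it, the most of any control peak in these genes together with exon 10 of EIF3M, and the capitals mark the match nearest to the summit, 19 bases downstream.
EIF2AK3 exon 13, minus strand, chr2:88874749-88874773: tctcaggaatGGACCatgaggacat

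The eIF1, eIF5 and eIF6 genes held 1478 control reads and 1360 METTL3-KD reads, 0.0456% and 0.0742%, with a log2 ratio of 0.70 (-0.94 to 2.98) by total counts and 2.13 (0.48 to 4.4) by TMM. EIF1, which guards start codon choice, had 113 and 124 control reads and 69 and 84 METTL3-KD reads, a log2 ratio of 0.19 by total counts and 1.60 by TMM with lower bounds of -3.11 and -1.68. Its copy EIF1P5 had 915 control reads and none in METTL3-KD cells. EIF1AD had 52 METTL3-KD reads, EIF1AX 43 and EIF1B 34, all at 0 in the control. EIF5, which makes eIF2 hydrolyse its GTP, had 533 and 536 control reads and 141 and 188 METTL3-KD reads, a log2 ratio of -0.87 (-2.87 to 2.36) by total counts and 0.55 by TMM. EIF5A, the hypusine-bearing factor that relieves stalled ribosomes, had 7 and 4 control reads and 221 and 257 METTL3-KD reads. Its lower bound was 0.13 by TMM and -1.29 by total counts, with its control reads rounded to 0 fragment equivalents. Its intronless copy EIF5AL1, 98.0% identical over the aligned bases, had the reverse, 83 and 78 control reads and 1 METTL3-KD read, and had the lowest fitted log2 ratio of these genes, -4.35 by TMM and -5.24 by total counts. Its control reads are 0.316 fragment equivalents, so no interval could be given in that unit, and with distinct positions the interval included 0. With such copies the counts of each are uncertain. EIF5B had 50 METTL3-KD reads and 0 in the control, and EIF5A2 had no read. EIF6, which keeps the ribosomal subunits apart, was at 0 in the control and had 108 and 112 METTL3-KD reads. An overlapping protein-coding gene on the same strand had 107 METTL3-KD reads, 48.6% of the count of EIF6, so that part cannot be assigned to EIF6 alone. No gene of this group had an exon peak.

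Over all families the control list held 20 exon peaks in 16 genes and the METTL3-KD list 3 in 3 genes. The study's definition of a significant peak also asks for a fold above 2, which left 13 and 2 genes, since peaks of pileup 1 have a fold just under 2. Of the 20, 9 lay in coding sequence, 6 in the 3'UTR, 1 in the 5'UTR and 4 in exons of non-coding isoforms. The 16 genes are 23.5% of the 68, against 6.32% of all 19488 protein-coding genes in the count table. Shares were also taken among genes with a minimum of reads, which narrows the difference in level without removing it. Among genes with at least 10 reads over both inputs the shares were 26.8% of the factors and 13.5% of all, and among those with at least 100 METTL3-KD reads 29.4% and 22.1%. Even there the factors had more reads, with a median of 193 METTL3-KD reads against 53 in the first comparison and 349 against 174 in the second, and the part of level in these shares was not tested. For the METTL3-KD list they were 4.41% and 1.84% of genes in the table, 5.36% and 3.18% of those with at least 10 reads, and 5.88% (2 of 34 genes) and 3.69% of those with at least 100 METTL3-KD reads. The lists differ in size as a whole, with 2298 control and 830 METTL3-KD peaks, so fewer peaks in METTL3-KD cells are not particular to translation factors.

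No peak of one list overlapped a peak of the other in these genes. Overlap was not counted over all peaks of the lists, so this is not shown to be particular to translation factors. Pileups in the control were 1 to 3 fragments, and 6 of the 20 peaks rested on 1 fragment. Of the 16 genes, 11 had 0 reads in the control input. In the stretch searched around the summit, 19 of the 20 control peaks had a DRACH match (95%), against 84.6% of all 1431 exon peaks of that list. So had 2 of the 3 METTL3-KD peaks, against 83.6% of 377. DRACH is a loose pattern, with 1.79 matches per peak over all control exon peaks and 1.95 over all METTL3-KD exon peaks. The 20 control peaks in translation factor genes had 1.95 per peak. How often a stretch of the same length outside peaks holds a match was not tested. These shares are therefore not shown to exceed chance. A match describes the letters under a peak and is not a mapped site.

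**Figure D5:**
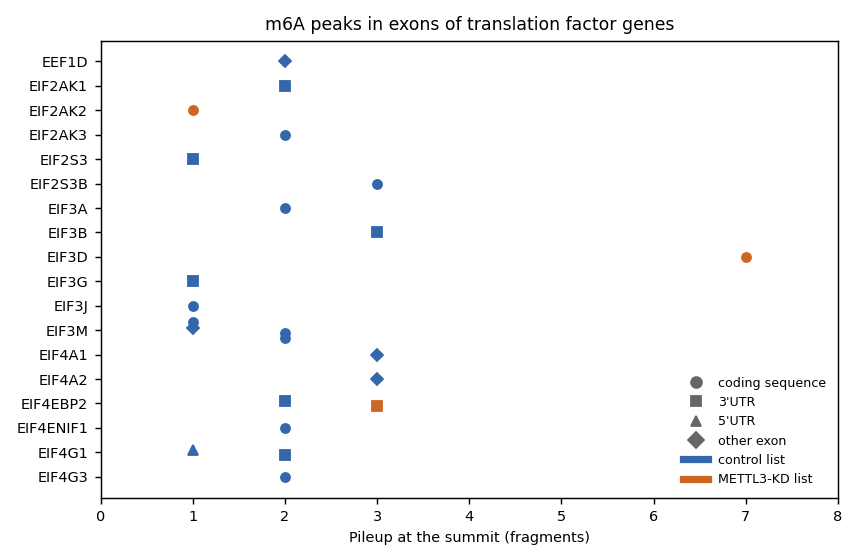
Pileup at the summit in fragments (horizontal axis) of every m6A peak with q under 0.01 and its summit in an exon of a translation factor gene, by gene, with colour for the list and shape for the part of the gene. Control peaks lie at 1 to 3 fragments, and the METTL3-KD peak of EIF3D stands at 7.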

How the data were processed

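The authors fragmented RNA to about 100 bases, prepared TruSeq stranded libraries without the oligo-dT step, removed rRNA reads with Bowtie2 and aligned with HISAT2 to hg19. Deposited input values are raw counts of reads per gene and lane from featureCounts, with no normalization. The annotation release, use of strand and handling of reads with several alignments are not given in the sources used here. Counted reads were 1.12 (control) and 1.37 (METTL3-KD) times the aligned reads of the peak caller. The authors called peaks with MACS2 2.1.1.20160309 on pooled lanes, 1 list per condition. The deposited pileup is a signal in retained fragments, the deposited fold is a ratio to local background, and the deposited q value is on a −log10 scale. The headers give a q cut-off of 0.05 and the methods 0.01, so peaks with q under 0.01 were used, without the fold above 2 that the methods add, which was an alternative.

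Lanes were summed, because L001 and L002 were read as lanes of the same library. Pairing by lane number was checked by the correlation of lane deviations, -0.0132 over 1871 genes. Ratios were CPM with TMM scaling (edgeR 4.0.16) and a prior count of 2 over 9931 genes with at least 10 reads in both inputs together. Called means beyond a log2 of 2. Intervals are exact conditional binomial intervals. They were tested on simulated counts made as multiples of the same unit with little noise and without TMM scaling. That test cannot show whether the unit holds for the real counts. A count of 0 was given a floor of 3 fragment equivalents. Summits were annotated with GENCODE release 44 lifted to GRCh37, preferring canonical transcripts. Computation used Python 3.11.15, R 4.3.3 and DESeq2 1.42.0 for alternatives.

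The genes, families and lists were chosen with earlier results of these data known. Named genes were all eIF3 subunits, EIF4E, EIF4G1, EIF4A1, EEF1A1 and EEF2, the 3 most read genes of each functional list, the 5 highest and 5 lowest ratios among genes with 10 reads in each input, and every gene with an exon peak. Other genes were named after their values were seen, to account for every member.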

Additional observations from a re-analysis of the deposited data

How the results depend on the processing

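Of 132 alternative values of the counts and medians, 106 stayed close to the reported value and 26 moved. The 2 genes below a log2 of -2 became 5 by total counts, 1 with DESeq2 size factors, 1 with a minimum of 50 reads, and 0 with the lower mode or reads per distinct position as the divisor, the latter added after seeing the data. With lanes as replicates the number was 1 in edgeR without the replicate block, 1 with the replicate block and 1 in DESeq2. The 37 genes above 2 became 17 with the lower mode and 15 with reads per distinct position. The fitted median of 6.19 became 7.79 with a prior count of 0.5, 3.96 with 10, 1.39 with the lower mode, 1.38 with reads per distinct position and 9.46 in DESeq2 with lanes. For eIF2 (7.06) these were 9.05, 4.78, 1.39, 1.38 and 10.72, with 6.02 by total counts, and for eIF3 (6.22) DESeq2 with lanes gave 9.68. The elongation median changed sign, from 1.35 to -0.08 by total counts. The causes were not tested, except that ratios against 0 depend on the prior count by construction. Leaving out a lane gave 1 to 2 genes below and 37 to 38 above, 21 to 22 measured in both, and medians of 5.56 to 6.07 over all genes described, 6.42 to 6.91 for eIF2, 5.88 to 6.15 for eIF3, 3.86 to 4.08 for eIF4 and 1.34 to 1.56 for elongation. Without either control lane the count below -2 was 1. A fold of at least 4 left 0 of 16 control genes and 1 of 3 METTL3-KD genes with an exon peak.

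The counting units of the intervals and the family sums without EIF3CL, EEF1A1 or snoRNA reads were added after seeing the data. Of 731 alternatives for 49 named genes 722 stayed close and 9 moved. Depth limits every gene at 0 in the control, and lanes measure no variation between cultures.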

Other observations

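Genes that act on the translation factors but carry other names were read from lists of 36 genes, of which 31 had at least 10 reads over both inputs and 15 (48.4% of the 31, background 74.3%) had reads in METTL3-KD cells alone. With 1 library per condition these are values without a test. By TMM 4 lay below a log2 ratio of -2 (background 7.2%) and 17 above 2 (background 79.2%). PABPC1, the poly(A)-binding protein that meets eIF4G, had 1068 and 1085 control reads and 334 and 335 METTL3-KD reads, a log2 ratio of -0.86 by total counts and 0.56 by TMM. DDX3X, a helicase of initiation, had 1069 and 1051, then 178 and 197, a log2 ratio of -1.67 by total counts and -0.25 by TMM. ETF1, the release factor that reads stop codons, had 1046 and 978, then 127 and 102, a log2 ratio of -2.31 by total counts and -0.89 by TMM. These 3 were the most read of the lists. Among the 14 of these genes with at least 10 reads in each input, 1 had a ratio above 0 by total counts (background 13.7%) and 7 by TMM (background 37.5%).

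In the list of stress response genes and EEFSEC, the selenocysteine elongation factor, 4 of 5 genes had at least 10 reads and all 4 were at 0 in the control, where 74.3% of all tested genes were too. ATF4, the transcription factor translated when eIF2 is phosphorylated, had 123 and 129 reads there, named after its value was seen, and with 0 control reads it lay under the detection limit of the control like the eIF2 kinases.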
